A study of Mus musculus with 18 samples.

Results

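Expression of 9 genes of the tight junction and of the simple epithelial keratin cytoskeleton was followed in bulk RNA sequencing of the mouse retinal pigment epithelium (RPE), a single pigmented sheet of cells between the photoreceptors and the choroid. The 9 genes were Tjp1, Ocln, F11r, Cldn1, Cldn2, Cldn19, Krt8, Krt18 and Krt19, taken by symbol from the 21859 rows of the count table. Each had 1 row, and all 9 were among the 15944 genes that passed the filter on low counts. The 18 libraries fall into 4 groups: RPE of young mice (Young, 7 libraries), old mice (Old, 4), old mice that received the adeno-associated virus vector AAV2-tTA (Old-Control, 3), and old mice that received AAV2-tTA;TRE-OSK (Old-OSK, 4). OSK is short for 3 transcription factors, Oct4 (gene Pou5f1), Sox2 and Klf4, placed under the TRE promoter, which the transactivator tTA switches on. Both vector groups carry tTA, and the labels name no vector for the Old group. Strain, ages, vector doses, the promoter driving tTA and the times after injection are not given in the labels used here. The labels do not say whether libraries came from separate animals, so the p-values measure the spread between these libraries.

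Tight junctions seal the space between neighbouring epithelial cells and limit what passes between them. In the RPE they form the outer part of the blood-retina barrier. Claudins are the membrane proteins that set the seal and its selectivity, occludin (Ocln) and junctional adhesion molecule A (F11r) are further membrane proteins of the junction, and ZO-1 (Tjp1) is the cytoplasmic scaffold that ties them to actin. Keratins are intermediate filament proteins that assemble as pairs of a type II and a type I chain. Krt8 (type II) and Krt18 (type I) are the usual pair of simple epithelia, RPE included, and Krt19 is a small type I keratin of many simple and ocular surface epithelia.

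The members lie on 8 chromosomes of the mouse genome (build GRCm38, GENCODE annotation), and all are protein-coding. Tjp1 is at chr7:65296165-65527781 on the minus strand, Ocln at chr13:100496507-100552718 (minus), F11r at chr1:171437535-171464603 (plus), Cldn1 at chr16:26356642-26371841 (minus), Cldn2 at chrX:139800828-139811386 (plus), Cldn19 at chr4:119255414-119262438 (plus) and Krt19 at chr11:100140810-100148665 (minus). Krt8 (chr15:101996698-102004482, minus) and Krt18 (chr15:102028180-102032027, plus) lie 23697 bases apart on the same chromosome. Cldn19 shares 90 exon bases with the antisense gene Gm12927 and Krt8 shares 101 with the opposite-strand gene Gm36026. The strand setting of the counting is not given in the sources used here, so reads over those bases cannot be told apart. The pseudogene Krt8-ps, which has no row in the count table, matches Krt8 at 98.6% identity over 941 bases, so the Krt8 counts are uncertain to that extent.

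Promoter sequence is shown for Cldn1 and Krt18, whose levels went up and down together across the libraries, and for F11r, which went the opposite way. Each run is the stretch upstream of the annotated gene within 250 bases of the RefSeq start (RefSeq sequence, build GRCm38.p6), written 5′ to 3′ on the gene's strand. Capitals mark matches to the motifs searched.
Cldn1 (chr16:26371842-26372089, minus strand): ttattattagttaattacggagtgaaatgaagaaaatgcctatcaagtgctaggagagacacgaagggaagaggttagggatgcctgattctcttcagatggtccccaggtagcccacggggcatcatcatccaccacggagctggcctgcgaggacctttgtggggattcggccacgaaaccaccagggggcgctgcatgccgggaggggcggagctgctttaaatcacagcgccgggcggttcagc
Krt18 (chr15:102027966-102028179, plus strand): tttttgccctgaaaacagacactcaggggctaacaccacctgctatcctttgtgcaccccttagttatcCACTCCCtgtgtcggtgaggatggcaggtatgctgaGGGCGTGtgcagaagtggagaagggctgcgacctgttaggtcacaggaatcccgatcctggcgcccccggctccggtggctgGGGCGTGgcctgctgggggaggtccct
F11r (chr1:171437311-171437534, plus strand): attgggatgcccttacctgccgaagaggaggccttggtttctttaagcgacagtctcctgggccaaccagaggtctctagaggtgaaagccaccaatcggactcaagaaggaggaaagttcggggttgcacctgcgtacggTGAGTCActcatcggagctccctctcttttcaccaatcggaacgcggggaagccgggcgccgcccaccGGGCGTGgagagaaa
The search covered 6 motif patterns on both strands, none of which contains another: the octamer ATGCAAAT, the SOX pattern CATTGT, the KLF pattern GGGNGTG, the E-boxes CACGTG and CATGTG, and the AP-1 pattern TGANTCA. The whole 250 bases before the start were searched, also where fewer are printed. Of 32851 mouse promoter windows of 250 bases, 1.6% held the octamer, 10.7% SOX, 26.1% KLF, 6.02% CACGTG, 12.3% CATGTG and 6.75% AP-1. The Krt18 window held KLF matches at positions -181, -145 and -63 relative to its RefSeq start. The F11r window held an AP-1 match at -109 and a KLF match at -41, and the Cldn1 window held none of the 6. A window was matched for 8 of the 9 members, all but Krt19. KLF matches were also found for Tjp1, in a window inside the annotated gene, and for Ocln in window 1 but not in window 2. The 2 overlapping Cldn19 windows held a KLF match, and the Cldn2 and Krt8 windows held no match. The shares above are per window, so a gene with more than 1 window had more chances of a match.

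Library totals were 19629563 to 31914550 counts in Young, 19167774 to 32348136 in Old, 25130319 to 26037720 in Old-Control and 18104828 to 28489232 in Old-OSK. The lowest member counts were 18 for Cldn19, 80 for F11r and 152 for Krt19, all in Young replicate 7. Levels are CPM, the counts of a gene relative to the TMM-scaled total of its library, given as mean ± SD. As a check of the labels, Pou5f1 averaged 75.1 ± 21.1 CPM in the 4 Old-OSK libraries and at most 0.651 CPM in each other group, and Sox2 averaged 93.2 CPM against at most 7.78. The highest single libraries outside Old-OSK were Young replicate 3 for Pou5f1 (3.75 CPM) and Old-Control replicate 2 for Sox2 (15.9 CPM). Klf4 averaged 321 ± 118 CPM in Old-OSK and 85.4 ± 90.4 in Old, where replicate 4 (216 CPM) lay above Old-OSK replicate 4 (155 CPM). The RPE label was borne by its markers: all 8 listed (Rpe65, Best1, Rlbp1, Lrat, Ttr, Rgr, Rdh5 and Mitf) were detected in every library, although Best1 averaged only 1.21 CPM in Young.

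Libraries also carried transcripts that mark corneal or conjunctival epithelium, in amounts that moved with the groups. Which cells these transcripts came from was not tested. The summed level of 8 corneal or conjunctival epithelium markers (Krt12, Krt5, Krt14, Krt15, Krt13, Krt4, Trp63 and Aldh3a1) ranged from 204 to 6140 CPM in Young (median 1210), from 1010 to 20800 in Old (median 7430), from 1340 to 5270 in Old-Control (median 3140) and from 3830 to 29700 in Old-OSK (median 19700). None of the 8 was at 0 in any library. Krt12, the keratin that defines corneal epithelium, had a median of 3.14 CPM in Young and of 1240 CPM in Old-OSK. The summed RPE markers had their lowest median in Old-OSK (23900 CPM, range 14800 to 29200). They stood at 38400 to 63800 CPM in Young (median 51200), 26300 to 46300 in Old (median 45300) and 19700 to 61300 in Old-Control (median 52600). The Old-Control median was thus not below that of Young. In bulk libraries, fewer cells of a type and less RNA per cell cannot be told apart. Single libraries lay far from the rest of their groups on these lists. Old-OSK replicate 4 had an epithelium score (mean log2 CPM of the 8 markers) of 7.76 against 10.2 to 10.9 in the other Old-OSK libraries. In Old, replicate 1 had 5.75, replicate 4 had 10.5 and the other 2 had 8.02 and 8.69. Young replicate 7 had 3.76 against at least 5.58 in the other Young libraries. Old-Control replicate 2 had the lowest RPE score of its group (9.22) and the highest rod photoreceptor score (10.0). An M that the labels do not explain stands in the names of 6 libraries, which are replicates 5 to 7 of Young, replicates 2 and 3 of Old-Control and replicate 4 of Old-OSK.

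Per kilobase of exon, the keratin pair and Cldn1 were the most abundant members in young RPE. Krt18 stood at 648 ± 134 CPM per kilobase (SD, n = 7), Krt8 at 241 ± 53.1, Cldn1 at 108 ± 20.2 and Cldn2 at 52.4 ± 9.38. Krt19 was at 39.5 ± 37.1, a spread nearly as large as its mean. Tjp1 (10.3 ± 1.93), F11r (9.59 ± 5.71), Ocln (6 ± 0.83) and Cldn19 (3.88 ± 3.28) were lower. The ranges given by mean ± SD overlapped between Cldn2 and Krt19 and between neighbours from Tjp1 to Cldn19. In the Old-OSK group the order was different. Krt19 reached 194 ± 91.1 CPM per kilobase there and stood between Krt18 (396 ± 77.2) and Krt8 (154 ± 14.2), and F11r (42.5 ± 20) stood beside Cldn1 (39.2 ± 7.13).

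**Figure D1:**
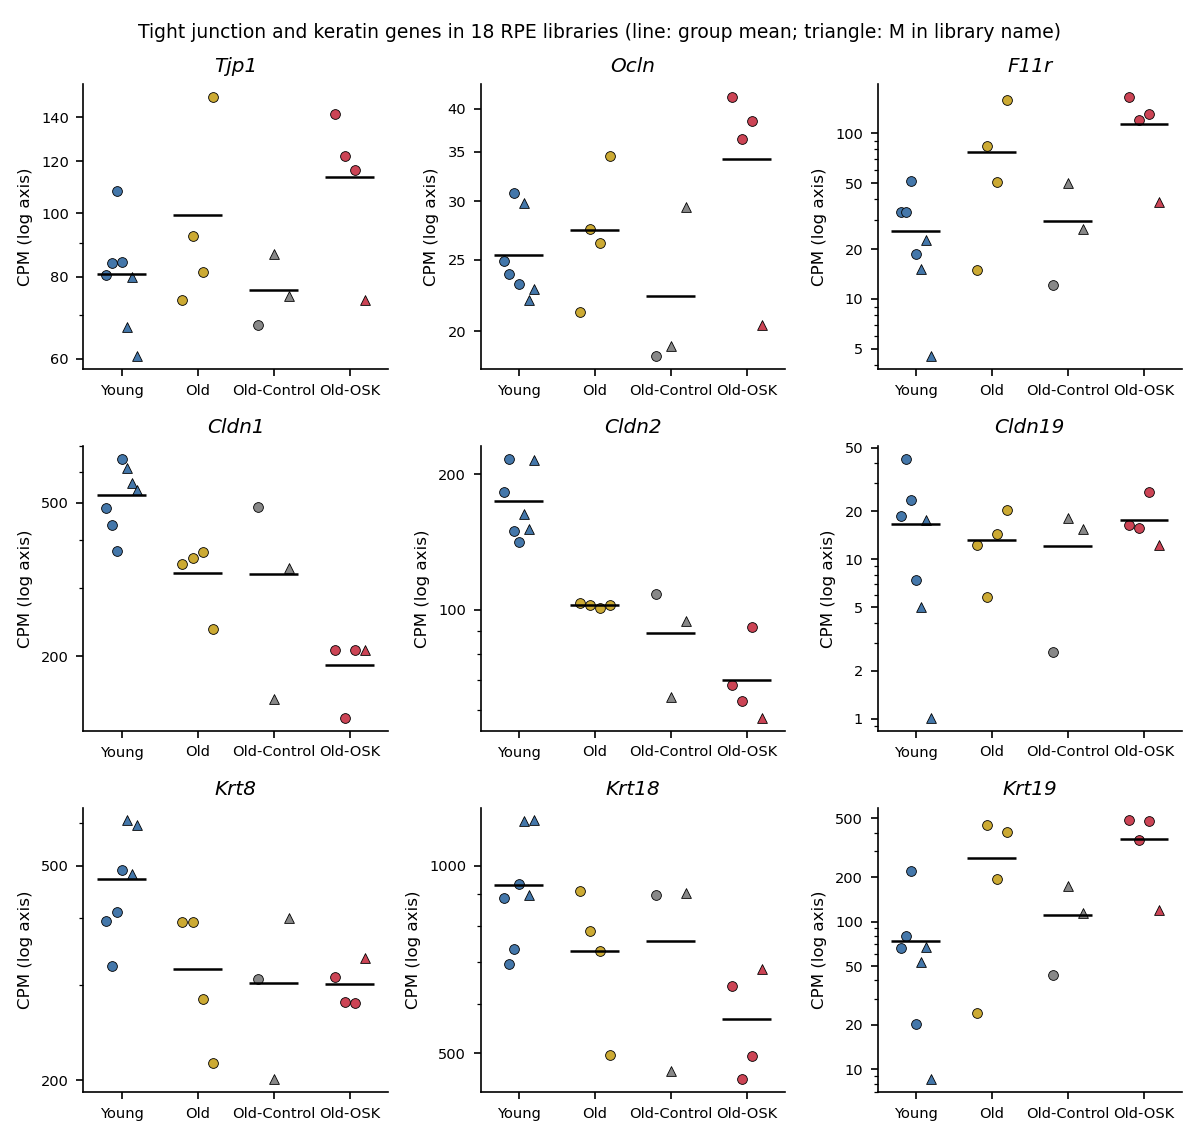
CPM of each gene (log axis) in the 18 libraries by group, with 1 point per library, triangles for libraries with M in their names and a line at the group mean. Cldn2 was between 101 and 104 CPM in all 4 Old libraries and below every Young library, whereas Krt19 in Old spread from 24 to 453 CPM.

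The comparison of Old with Young asks how the RPE differs with age. Of the 9 genes, 1 passed the test: Cldn2, a claudin that forms cation- and water-permeable pores, was lower in old RPE. Of all genes tested, 9.56% were called in this comparison (edgeR quasi-likelihood test, Benjamini-Hochberg adjusted p under 0.05), so 1 of 9 is near that background. Cldn2 stood at 142 to 216 CPM in the 7 Young libraries (median 164) and at 104, 103, 101 and 103 CPM in the Old libraries. The groups did not overlap, and the Old libraries were nearly identical for this gene (SD 1.15 CPM). The log2 fold change was -0.77 (SE 0.16, 95% interval -1.11 to -0.43), a 1.7-fold lower level, with an edgeR adjusted p of 0.00922. The call held in all 11 fits that left out 1 library and among the libraries without M alone (-0.75, edgeR adjusted p = 0.0392). It was lost, with a like size, when the rod score (-0.63, edgeR adjusted p = 0.0521) or the epithelium score (-0.71, edgeR adjusted p = 0.0528) entered the fit. A fit with the replicate number as a block used only the numbers found in both groups and called 0 of 15124 genes. That fit could therefore not keep the call (Cldn2 -0.73, edgeR adjusted p = 0.153).

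Cldn1, a sealing claudin, had the second non-overlapping pair of groups. It stood at 375 to 650 CPM in Young (median 540) and at 347, 360, 372 and 235 CPM in Old. Every Old library lay below every Young library. Such separation was found for 9.3% of all genes tested in this comparison, against 2 of the 9 members. The log2 fold change was -0.67 (SE 0.243, 95% interval -1.19 to -0.16), which did not pass after adjustment over all genes (edgeR adjusted p = 0.0823). It passed in 2 of 10 other settings and in 0 of 11 fits leaving out 1 library. The 2 were the RPE score in the fit (-0.44, edgeR adjusted p = 0.0191) and the 2 groups alone (-0.65, edgeR adjusted p = 0.0352). With the epithelium score it was -0.36 (edgeR adjusted p = 0.486) and with the rod score -0.50 (edgeR adjusted p = 0.275). Among libraries without M it was -0.56 (edgeR adjusted p = 0.179).

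F11r and Krt19 had the largest log2 fold changes of the 9 between Old and Young, and neither passed. F11r, an adhesion molecule of the junction, stood at 4.5 to 51.2 CPM in Young (median 22.7) and at 15, 83.6, 50.8 and 158 CPM in Old. Old replicate 1 lay inside the Young range and Old replicate 4 far above it. The log2 fold change was 1.59 (SE 0.581, 95% interval 0.36 to 2.81, edgeR adjusted p = 0.0861). Krt19 stood at 8.55 to 218 CPM in Young (median 65.9) and at 24, 453, 194 and 404 CPM in Old, so 2 of the 4 Old libraries lay inside the Young range. Its log2 fold change was 1.87 (SE 0.716, 95% interval 0.36 to 3.39, edgeR adjusted p = 0.0973). Both passed when Old replicate 1 was left out, the Old library with the lowest epithelium score (1.93, edgeR adjusted p = 0.0313 for F11r and 2.26, edgeR adjusted p = 0.0343 for Krt19). Krt19 also passed without Young replicate 3 (2.45, edgeR adjusted p = 0.0309). Without Old replicate 4 the difference of F11r was 0.96 (edgeR adjusted p = 0.427) and that of Krt19 1.61 (edgeR adjusted p = 0.304), and without Old replicate 2 that of Krt19 was 1.5 (edgeR adjusted p = 0.239). With the epithelium score in the fit the differences were -0.14 for F11r and 0.04 for Krt19.

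The keratin pair averaged lower in Old without passing the test. Krt8 stood at 325 to 606 CPM in Young (median 482) and at 394, 394, 283 and 216 CPM in Old, a log2 fold change of -0.55 (edgeR adjusted p = 0.0938). Krt18 stood at 696 to 1183 CPM in Young (median 898) and at 910, 785, 731 and 496 CPM in Old, a log2 fold change of -0.35 (edgeR adjusted p = 0.29). Old replicate 4, the Old library with the lowest RPE score, was the lowest Old library for both. Among the Young libraries, Krt8 averaged 561 ± 68.6 CPM in the 3 with M in their names and 406 ± 68.3 in the 4 without. No Old library carries M, and among libraries without M the Krt8 difference was -0.33 (edgeR adjusted p = 0.398).

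Tjp1, Ocln and Cldn19 overlapped broadly between the ages. Tjp1 stood at 60.5 to 108 CPM in Young (median 80.6) and at 73.6, 92.3, 81.5 and 150.1 CPM in Old, so a single library, Old replicate 4, lay above the Young range (log2 fold change 0.30, 95% interval -0.12 to 0.72, edgeR adjusted p = 0.329). Ocln stood at 22 to 30.8 CPM in Young (median 23.9) and at 21.2, 27.5, 26.4 and 34.6 CPM in Old. Its log2 fold change was 0.11 with a narrow 95% interval of -0.28 to 0.51 (edgeR adjusted p = 0.725). Cldn19, a claudin described as a main one of human RPE, stood at 1.01 to 42.4 CPM in Young (median 17.7) and at 12.2, 5.8, 14.4 and 20.4 CPM in Old. Its interval ran from -1.74 to 1.09 on the log2 scale, so these libraries could not resolve even a large difference (edgeR adjusted p = 0.785).

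**Figure D2:**
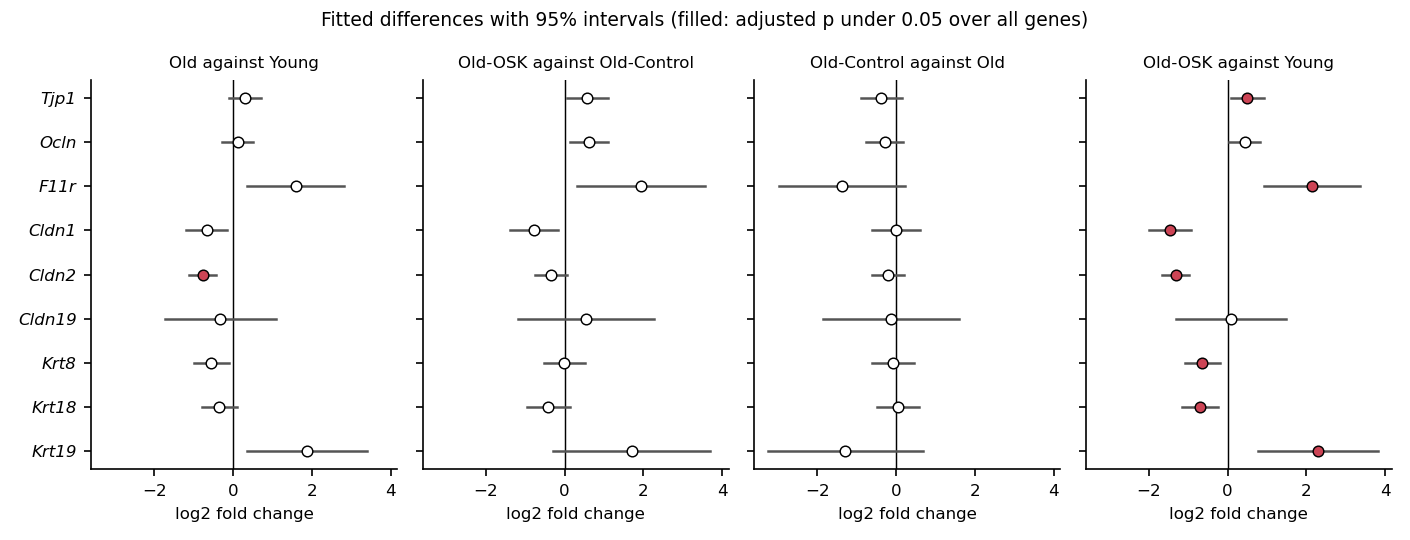
Fitted log2 fold changes (points) with 95% intervals (lines) of the 9 genes in 4 comparisons; filled points have an adjusted p under 0.05 over all genes. Filled points number 1 in Old against Young, 0 in both comparisons with Old-Control and 7 in Old-OSK against Young; the widest intervals belong to Krt19, F11r and Cldn19.

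Old-OSK was set against Old-Control to ask what the OSK factors changed in old RPE beyond the vector alone. None of the 9 genes passed (0 of 9, against 0.728% of all genes tested in edgeR), and 4 had an unadjusted p under 0.05 (26.3% of all genes): Cldn1, Ocln, F11r and Tjp1. DESeq2 called 1 of the 9, F11r, against 7.94% of all genes, which is near that background. No member had groups that did not overlap, against 12.4% of all genes tested. Beside the unpaired fits, the title numbers of these libraries were treated as pairs, although no label used here states a pairing. In all 3 pairs so formed, Tjp1, Ocln, F11r and Krt19 were higher and Cldn1, Cldn2 and Krt18 lower in Old-OSK. These pairs leave out Old-OSK replicate 4, and the share of all genes with 1 direction in all 3 was not counted. With the replicate number as a block 0 of the 9 passed, against 3.02% of all genes, at log2 fold changes of 0.73 for Tjp1 (edgeR adjusted p = 0.0613), 0.83 for Ocln (edgeR adjusted p = 0.0688), 2.41 for F11r (edgeR adjusted p = 0.0587), 2.18 for Krt19 (edgeR adjusted p = 0.0659) and -0.71 for Cldn1 (edgeR adjusted p = 0.14). That fit leaves Old-OSK replicate 4, which has no partner, without weight in the difference.

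Cldn1 stood at 489, 155 and 339 CPM in Old-Control and at 207, 138, 207 and 208 CPM in Old-OSK. Old-OSK replicates 1, 3 and 4 were nearly equal, and Old-Control replicate 2 lay among the Old-OSK values while the other 2 Old-Control libraries lay above them all. The log2 fold change was -0.79 (SE 0.287, 95% interval -1.39 to -0.18, edgeR adjusted p = 0.114). Without Old-Control replicate 2, the library with the lowest RPE score of its group, it was -1.15 and passed (edgeR adjusted p = 0.00752). With the RPE score in the fit it was 0.02 (edgeR adjusted p = 0.953). Cldn2 stood at 108, 64 and 94.4 CPM in Old-Control and at 68.2, 62.7, 91.5 and 57.6 CPM in Old-OSK, so the ranges overlapped. Its log2 fold change was -0.34 (95% interval -0.74 to 0.05, edgeR adjusted p = 0.259) and, without Old-Control replicate 2, -0.56 (edgeR adjusted p = 0.0458).

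The scaffold Tjp1 and the membrane proteins Ocln and F11r averaged higher in Old-OSK, in 3 of the 4 libraries. Tjp1 stood at 67.6, 86.8 and 74.8 CPM in Old-Control and at 142, 122, 117 and 73.8 CPM in Old-OSK (log2 fold change 0.57, SE 0.246, edgeR adjusted p = 0.155). Ocln stood at 18.5, 19.1 and 29.4 CPM in Old-Control and at 41.4, 36.5, 38.6 and 20.4 CPM in Old-OSK (0.61, SE 0.229, edgeR adjusted p = 0.118). F11r stood at 12.2, 50 and 26.5 CPM in Old-Control and at 164, 120, 130 and 38.3 CPM in Old-OSK (1.93, SE 0.771, edgeR adjusted p = 0.134). For all 3 genes Old-OSK replicates 1, 2 and 3 lay above every Old-Control library and replicate 4 lay inside the Old-Control range. Replicate 4 is the Old-OSK library with the low epithelium score. Without it Ocln passed (0.76, edgeR adjusted p = 0.0272), and Tjp1 (0.69, edgeR adjusted p = 0.0616) and F11r (2.19, edgeR adjusted p = 0.0719) did not. With the epithelium score in the fit the differences of Tjp1, Ocln and F11r were 0.05, 0.25 and 0.24. With M as covariate, which 2 of the 3 Old-Control and 1 of the 4 Old-OSK libraries carry, that of F11r was 1.2 (edgeR adjusted p = 0.47).

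Krt19 followed the same libraries: it stood at 43.5, 173 and 114 CPM in Old-Control and at 483, 359, 476 and 121 CPM in Old-OSK. Replicate 4 was again the one Old-OSK library inside the Old-Control range. The log2 fold change was 1.71 with an SE of 0.942 and an edgeR adjusted p of 0.264, and with M as covariate it was 1.03 (edgeR adjusted p = 0.658). Krt8 averaged 303 ± 99.3 CPM in Old-Control and 301 ± 27.8 CPM in Old-OSK, with a 95% interval of the log2 fold change of -0.53 to 0.52 (edgeR adjusted p = 0.992). Krt18 stood at 896, 469 and 904 CPM in Old-Control and at 641, 454, 494 and 684 CPM in Old-OSK. Old-Control replicate 2 lay near the bottom of the Old-OSK range and the other 2 Old-Control libraries above it (-0.41, 95% interval -0.95 to 0.13, edgeR adjusted p = 0.323). Cldn19 stood at 2.63, 18 and 15.5 CPM in Old-Control and at 16.5, 15.6, 26.3 and 12.3 CPM in Old-OSK (0.55, 95% interval -1.18 to 2.28, edgeR adjusted p = 0.74).

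Old-Control was set against Old to see what the vector without OSK changed. None of the 9 genes passed, as none of all genes did (0% called, lowest edgeR adjusted p 0.9, with 596 genes at an unadjusted p under 0.05). None of the 9 reached an unadjusted p under 0.05 either, and DESeq2 called 0 genes at all. The smallest difference was that of Cldn1 (328 ± 63.1 CPM in Old, 328 ± 167 in Old-Control) and the largest that of F11r (76.8 ± 60.8 and 29.6 ± 19.1 CPM, log2 fold change -1.37, edgeR adjusted p = 0.9). The 8 epithelium markers all had lower fitted levels in Old-Control than in Old, with a median log2 fold change of -1.50.

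Old-OSK was also set against Young, a comparison chosen after the data had been seen and which carries both age and vector. It shares the Young libraries with the comparison of ages and the Old-OSK libraries with that of the vectors. Here 7 of the 9 genes passed, against 46.4% of all genes tested. Higher in Old-OSK were 3 (Tjp1, F11r and Krt19, with 25.1% of all genes called higher) and lower were 4 (Cldn1, Cldn2, Krt8 and Krt18, with 21.4% called lower).

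Among the 9, Cldn1 showed the largest fitted fall, from 524 ± 98 CPM (SD, n = 7) in Young to 190 ± 34.5 CPM (SD, n = 4) in Old-OSK. The fitted level was 2.76-fold lower (log2 fold change -1.46 with SE 0.252, edgeR adjusted p = 0.000394). Cldn2 fell from 174 ± 31.2 to 70 ± 15 CPM (log2 fold change -1.32 with SE 0.164, edgeR adjusted p = 3.78e-05). The 4 group means of Cldn2 ran in the order Young (174), Old (102), Old-Control (88.9) and Old-OSK (70), in which only the step from Young to Old exceeded the spread by the test. Krt18 fell from 931 ± 192 to 568 ± 111 CPM (-0.71, edgeR adjusted p = 0.0133) and Krt8 from 472 ± 104 to 301 ± 27.8 CPM (-0.65, edgeR adjusted p = 0.019). Krt19 rose from 73.3 ± 68.9 to 359 ± 169 CPM (2.29, edgeR adjusted p = 0.0159) and F11r from 25.5 ± 15.2 to 113 ± 53.3 CPM (2.14, edgeR adjusted p = 0.0071). Tjp1 rose from 80.6 ± 15.1 to 114 ± 28.7 CPM (0.49, edgeR adjusted p = 0.0493), a call that held in 2 of 11 fits leaving out 1 library, those without Young replicate 3 and without Old-OSK replicate 4. Krt8 was not called without Old-OSK replicate 2 (edgeR adjusted p = 0.0584) or replicate 3 (edgeR adjusted p = 0.0506), nor Krt18 without replicate 2 (edgeR adjusted p = 0.057). Ocln (25.4 ± 3.5 to 34.2 ± 9.43 CPM, edgeR adjusted p = 0.064) and Cldn19 (16.5 ± 14 to 17.7 ± 6.01 CPM, edgeR adjusted p = 0.926) did not pass.

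The calls of this comparison differed in what happened to them when a marker score entered the fit as a covariate, an alternative added after the data had been seen. With the epithelium score, 7.76% of all genes were called, and 1 of the 7 remained so, Cldn2 (-1.22, edgeR adjusted p = 0.00597). F11r went to -0.46, Krt19 to -0.61 and Tjp1 to -0.29, all with reversed sign and none called, and Krt18 went to -0.06. With the RPE score, 9.46% of all genes were called. Cldn1 (-0.50, edgeR adjusted p = 0.0448) and Cldn2 (-1.03, edgeR adjusted p = 0.00883) remained called, while Krt18 went to 0.07 and Krt8 to -0.02. The members still called, 1 and 2 of 9, are near the share of all genes in those fits. Scores and groups moved together, so a fit with a score as covariate divides the same difference between the 2 terms. The part of other cells in these differences was not tested beyond these fits.

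**Figure D3:**
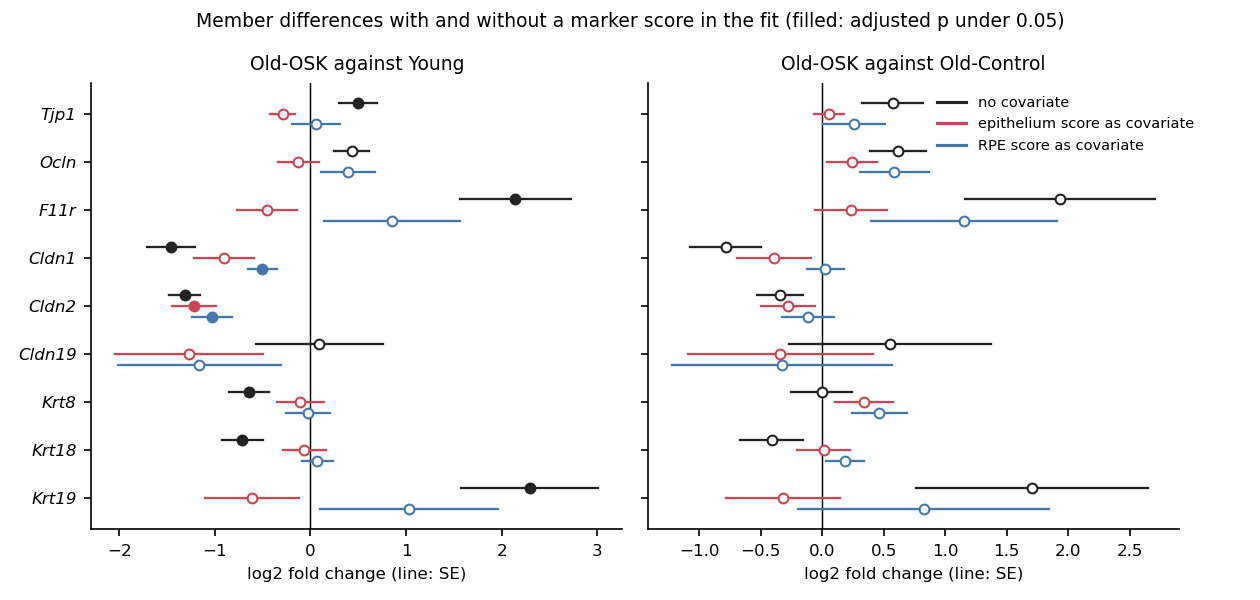
Log2 fold changes (points) with SE (lines) of the 9 genes in Old-OSK against Young and against Old-Control, fitted with no covariate, with the epithelium score and with the RPE score; filled points have an adjusted p under 0.05. Cldn2 is filled in all 3 fits against Young, and the points of F11r and Krt19 move there from above 2 to below 0 with the epithelium score.

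Across the 18 libraries the members formed opposing sets. Correlations of log2 CPM between members are given as descriptions, since the libraries share groups. F11r went with Krt19 (r = 0.953) and with Tjp1 (r = 0.907), and Krt8 went with Krt18 (r = 0.889), the pair of chains that build 1 filament. Cldn1 went with Krt18 (r = 0.885), whereas F11r and Krt18 ran opposite to each other (r = -0.835). Most of these held among the 7 Young libraries alone, at 0.914 for F11r and Krt19, 0.937 for Krt8 and Krt18, and -0.841 for F11r and Krt18. Cldn1 and Cldn2 did not: r was 0.844 over all libraries and -0.254 within Young. Cldn19 went with F11r within Young (r = 0.941) more closely than over all libraries (r = 0.659).

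The same sets appeared against the marker scores. Over all 18 libraries these correlations are again descriptions, since the groups differ in both the score and the gene. F11r (r = 0.96, rho = 0.94) and Krt19 (r = 0.95, rho = 0.96) were higher where the epithelium score was higher. Without the 2 libraries with the most extreme scores, r was 0.94 and 0.92. Among the 6 libraries with M and the 12 without, r was 0.97 and 0.94 for F11r and 0.97 and 0.93 for Krt19. Tjp1 had r = 0.89 with this score (rho = 0.86). Ocln had r = 0.70 (rho = 0.60), but its r was -0.26 among the libraries with M. Cldn1 (r = 0.93, rho = 0.84) and Krt18 (r = 0.91, rho = 0.88) were higher where the RPE score was higher, with r of 0.89 and 0.87 without the 2 most extreme libraries. Among the libraries with and without M it was 0.91 and 0.95 for Cldn1 and 0.97 and 0.92 for Krt18.

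Tests of these relations are given for the 7 Young libraries alone. They are two-sided exact permutation tests, adjusted by the Benjamini-Hochberg method over the 18 relations of 9 members and 2 scores. The permutations did not keep the 3 libraries with M and the 4 without apart, so differences that go with M enter these relations. Tjp1, F11r, Krt19 and Cldn19 averaged 89.2, 34.1, 96.1 and 22.98 CPM without M and 69.2, 14.1, 42.95 and 7.91 with M. Krt18 averaged 814 CPM without M and 1087 with M. Epithelium scores ran from 5.66 to 8.55 without M and from 3.76 to 6.19 with M. With the epithelium score, Krt19 had r = 0.93 (exact p = 0.00198, adjusted 0.0357) and rho = 0.96 (exact p = 0.00278, adjusted 0.0405). Krt18 ran the opposite way, with r = -0.86 (exact p = 0.0107, adjusted 0.0482) and rho = -0.93 (exact p = 0.00675, adjusted 0.0405). F11r had r = 0.92 (exact p = 0.00556, adjusted 0.0429) and rho = 0.89 (exact p = 0.0123, adjusted 0.0554). Tjp1 had r = 0.92 (exact p = 0.00714, adjusted 0.0429) and rho = 0.75 (exact p = 0.0663, adjusted 0.133). Cldn19 had r = 0.85 (exact p = 0.0183, adjusted 0.0657) and rho = 0.93 (exact p = 0.00675, adjusted 0.0405). Young replicates 7 and 3 hold the lowest and the highest of these scores. With the RPE score no member passed: Cldn1 had r = 0.75 (exact p = 0.0591, adjusted 0.14), Krt18 r = 0.83 (exact p = 0.0274, adjusted 0.0821) and Cldn2 r = 0.05.

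**Figure D4:**
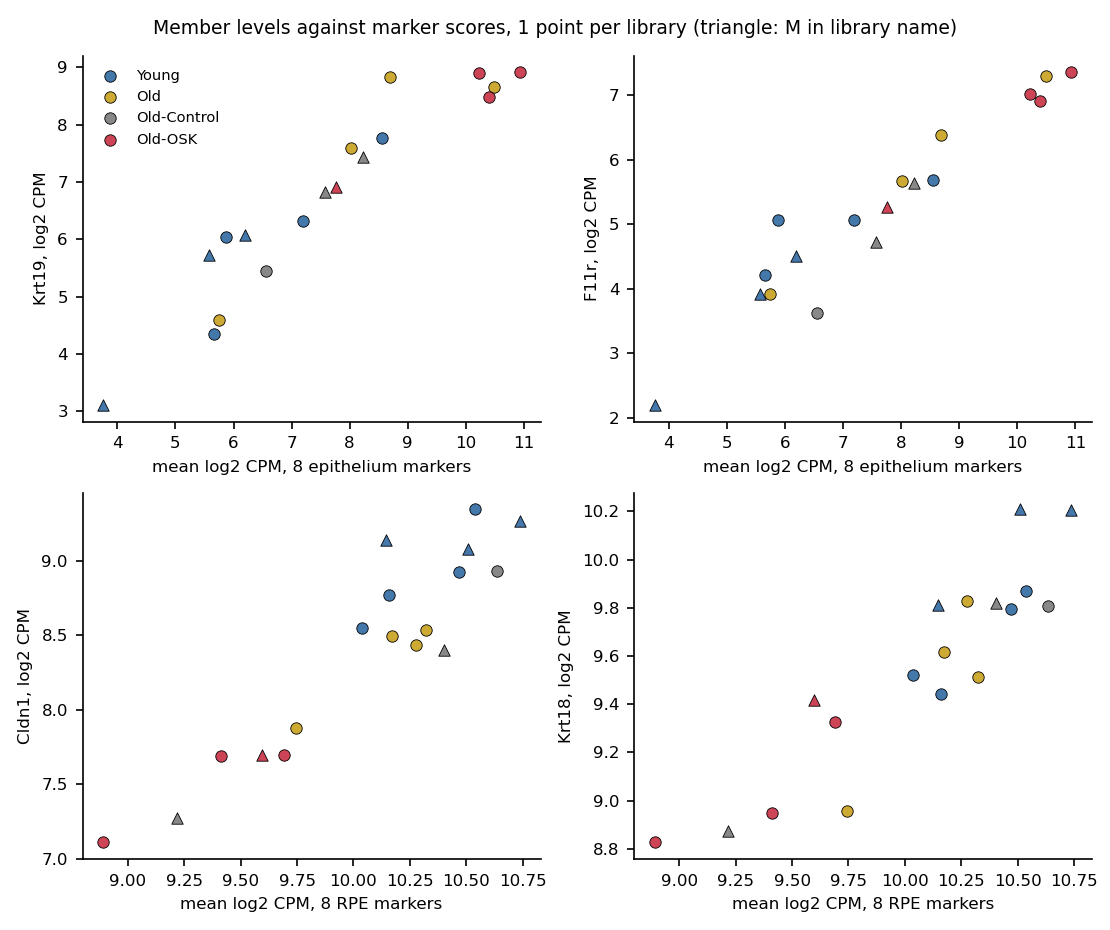
Log2 CPM of Krt19 and F11r against the epithelium score (top) and of Cldn1 and Krt18 against the RPE score (bottom), with 1 point per library, colours for groups and triangles for libraries with M in their names. The Young libraries alone span much of each upper slope, and Old-OSK replicate 4 (red triangle) lies among the Old-Control libraries in the upper panels.

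The genes whose pattern over the 18 libraries was most like that of each member were sought among the 10224 genes whose log2 CPM averaged 3 or more. For F11r they were Scel (r = 0.991) and Krt80 (r = 0.988), genes of stratified and surface epithelia. For Krt19 they were Krt7 and Klf5 (both r = 0.987), a simple epithelial keratin and an epithelial transcription factor. Tjp1 was most like Prkci (r = 0.969), the atypical protein kinase C of the apical polarity complex, and Reep3 (r = 0.964). Ocln was most like Adam17 (r = 0.93) and Mavs (r = 0.929). Cldn1 was most like Tc2n and St3gal6 (both r = 0.984), Cldn2 like Lpar1 and Sostdc1 (both r = 0.934), and Cldn19 like Col9a2 (r = 0.987). Col9a2 and Cldn19 had r = 0.998 within Young. Krt8 was most like Cpxm2 (r = 0.937) and Atp6ap1 (r = 0.935), the latter an accessory subunit of the vacuolar proton pump. Krt18 was most like Mtch1 (r = 0.979), an outer mitochondrial membrane protein, and Slc48a1 (r = 0.978), a haem transporter.

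Of 49 other tight junction genes, 45 could be tested. In Old against Young, 6 rose and 7 fell, against 9.56% of all genes called, with a median log2 fold change of 0.09 against -0.0044 over all genes. The lowest p-values belonged to Crb2, an apical polarity protein (-0.57, edgeR adjusted p = 0.00732), Marveld3, a relative of occludin (2.17, edgeR adjusted p = 0.0228), and Ildr2, of the angulin family (-0.58, edgeR adjusted p = 0.0232). In Old-OSK against Old-Control, 2 fell and 0 rose: Jam3, an adhesion molecule related to F11r (-1.36, edgeR adjusted p = 0.043), and Cldn12 (-0.61, edgeR adjusted p = 0.0475). The scaffold Magi2 came next (-0.49, edgeR adjusted p = 0.0702). The median there was 0.15 against -0.03 over all genes, of which 0.728% were called. These counts moved with single libraries: the calls by age numbered 1 without Old replicate 4 (none of them a rise) and 15 without Young replicate 3, and those in the OSK comparison 9 without Old-Control replicate 2, 10 without Old-OSK replicate 4 and 0 in each fit without one of the other 5 libraries. Of all genes, 2.47% and 12.4% were called in the first 2 of these fits by age. In the OSK comparison 17.9% were called without Old-Control replicate 2 and 11% without Old-OSK replicate 4. With the epithelium score in the fit, 0 rose and 1 fell by age, against 2.67% of all genes called.

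All 19 adherens junction and desmosome genes could be tested. In Old against Young, 1 rose and 0 fell, against 9.56% of all genes called. The 1 that rose was Jup, plakoglobin, with a log2 fold change of 1.80 (edgeR adjusted p = 0.04). Ctnnb1, beta-catenin (-0.27, edgeR adjusted p = 0.0553), and Pkp3, a desmosomal plaque protein (2.42, edgeR adjusted p = 0.0569), did not pass. Without Old replicate 1, 6 rose and 1 fell, and without Young replicate 3, 5 rose and 0 fell, against 13.4% and 12.4% of all genes called. In each of the other 9 fits leaving out 1 library, and with the rod, epithelium or RPE score in the fit, 0 rose. In Old-OSK against Old-Control 0 of the 19 passed in edgeR, with 10 at an unadjusted p under 0.05 and 6 called by DESeq2, against 26.3% and 7.94% of all genes. A positive fitted difference was found for 17 of the 19, and the median was 0.65 against -0.03 over all genes. The share of all genes with a positive difference was not counted. The lowest p-values belonged to Nectin2 (1.18, edgeR adjusted p = 0.0785), Perp (1.46, edgeR adjusted p = 0.0838) and Dsp, desmoplakin (1.74, edgeR adjusted p = 0.0859). In the fit with the replicate block, 4 of the 19 rose and 0 fell, against 3.02% of all genes called. Without Old-OSK replicate 4, 5 rose and 0 fell, and without Old-Control replicate 2, 1 rose and 1 fell. Of all genes, 11% and 17.9% were called in those fits.

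All 25 other keratin and intermediate filament genes could be tested. On this list are also 6 of the epithelium markers (Krt4, Krt5, Krt12, Krt13, Krt14 and Krt15). In Old against Young, 3 rose and 1 fell, against 9.56% of all genes called. The median was 1.67 against -0.0044 over all genes. Krt17 (2.74, edgeR adjusted p = 0.0354) and Krt14 (2.52, edgeR adjusted p = 0.0487), keratins of stratified epithelia, rose, and Gfap, the filament of glia, fell (-1.24, edgeR adjusted p = 0.0164). Without Young replicate 3, 13 rose and 2 fell, and without Old replicate 1, 13 rose and 1 fell. Of all genes, 12.4% and 13.4% were called in those fits. Without Old replicate 3 or 4 none was called, against 5.17% and 2.47% of all genes. In Old-OSK against Old-Control 0 passed in edgeR, with 14 at an unadjusted p under 0.05 and 6 called by DESeq2 (26.3% and 7.94% of all genes). The median there was 1.75 against -0.03 over all genes. The lowest p-values belonged to the lamin gene Lmna (1.14, edgeR adjusted p = 0.0631), the linker Plec (1.23, edgeR adjusted p = 0.088) and Krt17 (2.86, edgeR adjusted p = 0.112). With the replicate block 6 of the 25 rose and 1 fell, against 3.02% of all genes called. Without Old-Control replicate 2, 2 rose and 1 fell, and without Old-OSK replicate 4, 2 rose and 0 fell. Of all genes, 17.9% and 11% were called in those fits. All 8 epithelium markers had positive fitted differences in both comparisons, with medians of 2.25 and 2.33, of which 2 passed in the first and 0 in the second. Their part in the keratin and desmosome values was not tested.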

How the data were processed

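RPE libraries were made from polyA RNA by SMART-Seq amplification and Nextera XT tagging, per the labels' protocols. The deposited file holds raw read counts of each gene in 18 libraries. STAR 2.7.1a and featureCounts 1.6.2 and the builds GRCh38/hg38 and GRCm38/mm10 are listed in the submitters' processing notes; the annotation and strand setting are not given in the sources used here. The members, the gene lists and the tests were chosen with earlier results of these data known.

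Counts were filtered with filterByExpr (minimum count 10, minimum total 15), TMM-scaled and fitted over all 18 libraries with 4 group means in edgeR 4.0.16 (quasi-likelihood test, R 4.3.3), with Benjamini-Hochberg adjustment over 15944 genes. A gene was called at an adjusted p under 0.05. CPM used TMM-scaled totals and log2 CPM a prior count of 2. Named genes were all members, the 3 lowest p-values of each list in the age and the OSK contrast, and the 2 genes most correlated with each member, of which 1 is left out of the text. Alternatives were DESeq2 1.42.0 and its size factors, no filter, 2 groups alone, covariates, a replicate block and leaving out each library. Marker lists for cones, Müller glia, endothelium, stroma, immune cells, Schwann cells and melanocytes were also scored. Their median log2 fold changes in Old against Young were 1.29, -0.31, 0.69, -0.71, 1.60, -0.63 and -0.27, against 1.39 for rods and -0.30 for RPE. In Old-OSK against Old-Control they were -0.39, -0.36, -0.26, 0.12, 0.46, 0.53 and 0.08, against -0.15 for rods and -0.99 for RPE.

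No pair of replicate libraries agreed within sampling noise (lowest chi-square per gene 19.1). For Old-OSK against Old-Control, deviations of equally numbered libraries from their group means correlated at 0.103, 0.421 and 0.339 across genes. From this check alone, the title numbers were treated as pairs for that contrast, beside the unpaired main fit. Single values of 0.359 in Old-Control against Old and 0.352 in Old-OSK against Young were not taken as pairing. Libraries with unlike numbers were not compared in this way, so the check cannot show that the numbers pair libraries. Old-Control replicates 2 and 3 carry M in their names, and Old-OSK replicates 2 and 3 do not. No molecular identifiers were counted, so counting error understates the error of a value.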

Additional observations from a re-analysis of the deposited data

Results flagged for a closer look

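Among the 27 member and group combinations with 4 to 7 libraries, 2 held a library far from the others of its group; chance alone flags about 1 group in 20. Cldn1 in Old-OSK replicate 2 stood at 138 CPM, while the next of the other 3 libraries stood at 207 CPM, so this gap made up 0.988 of the range of the group. That library also had the lowest RPE score of all 18, at 8.89. Krt19 in Young replicate 3 stood at 218 CPM, while the next highest of the 7 Young libraries stood at 80 CPM (0.659 of the range). That library had the highest epithelium score of the Young group, at 8.55. The part of other cells in either value was not tested.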

How the results depend on the processing

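The direction of Cldn2 in Old against Young was kept under all 21 alternatives, and its call under 18 of them. The exceptions were the rod score, the epithelium score and the replicate block (-0.73, edgeR adjusted p = 0.153). The block fit called 0 of 15124 genes, so it could not keep a call. Of the 9 members, the number called in Old against Young was 0 with the rod score, the epithelium score or the replicate block, and 2 with the RPE score, DESeq2 or 2 groups alone. Leaving out 1 library gave 1 to 3. Of all genes tested, 3% were called with the rod score, 2.67% with the epithelium score and 0% with the replicate block. The RPE score gave 8.53%, DESeq2 11.8% and 2 groups alone 11.3%. M as covariate gave 3.76%, libraries without M 1.26% and no low-count filter 5.54%. Leaving out 1 library gave 2.47% to 13.4% of all genes. For the 45 other tight junction genes the 13 calls became 4 with M as covariate, 1 with the rod or epithelium score and 0 with the replicate block or in libraries without M, and 1 to 15 when 1 library was left out. The 1 call among adherens junction and desmosome genes became 0 with M as covariate, with the replicate block and in libraries without M, 2 with the RPE score (both lower) and 5 with DESeq2 (4 higher, 1 lower), and 0 to 7 when 1 library was left out. With the rod or epithelium score it was still 1, but a lower level and no rise. The 4 calls among other keratin and filament genes became 2 without the low-count filter, with the RPE score or with 2 groups alone, 13 with DESeq2, and 0 with M, the rod score, the epithelium score, the replicate block or libraries without M, and 0 to 15 when 1 library was left out. The causes were not tested.

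In Old-OSK against Old-Control, the number of members called was 1 with DESeq2 and 0 to 2 when 1 library was left out. Of all genes tested, 7.94% were called with DESeq2, 3.02% with the replicate block and 0.364% with M as covariate. The share was 0.583% with median-ratio size factors, 0.395% without the filter and 0.0129% with 2 groups alone. It was 0.809%, 0.232% and 0.0941% with the rod, epithelium and RPE score, and 0.0804% to 17.9% when 1 library was left out. The 2 calls among other tight junction genes became 1 with M as covariate, 12 with DESeq2, and 0 with median-ratio size factors, without the filter, with the rod, epithelium or RPE score, or with 2 groups alone, and 0 to 10 when 1 library was left out. Calls among adherens junction and desmosome genes were 6 with DESeq2, 4 with the replicate block and 0 to 5 when 1 library was left out. Those among other keratin and filament genes were 6 with DESeq2, 7 with the replicate block and 0 to 3 when 1 library was left out. The pairing changed no member's call in this comparison. In Old-OSK against Young, the 7 calls became 4 with the rod score, 1 with the epithelium score and 2 with the RPE score, and 4 to 8 when 1 library was left out. Of all genes tested, 27.8%, 7.76% and 9.46% were called with those scores, against 46.4% without a score. Leaving out 1 library gave 37.2% to 45.9%. The largest changes from leaving out 1 library came without Old-Control replicate 2 and without Old-OSK replicate 4 in the vector comparison, where the genes called among all tested went from 65 higher and 51 lower to 1007 and 1874 without the first and to 896 and 842 without the second.

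Some signs turned, none of them with a call under the alternative. With the epithelium score, Old against Young gave -0.17 for Tjp1, -0.21 for Ocln, -0.14 for F11r and 0.0026 for Krt18. Old-OSK against Old-Control gave -0.34 for Cldn19, 0.34 for Krt8, 0.010 for Krt18 and -0.32 for Krt19. Old-Control against Old gave -0.076 for Krt18. Old-OSK against Young gave -0.29 for Tjp1, -0.13 for Ocln, -0.46 for F11r, -1.27 for Cldn19 and -0.61 for Krt19. With the RPE score, Old-OSK against Old-Control gave 0.024 for Cldn1, -0.33 for Cldn19, 0.46 for Krt8 and 0.18 for Krt18, and Old-OSK against Young gave -1.16 for Cldn19 and 0.073 for Krt18. With M as covariate, Krt8 in Old-OSK against Old-Control was 0.11, and in Old-Control against Old Cldn1 was 0.022, Cldn19 0.54 and Krt18 -0.084. With the rod score these were 0.036 for Krt8 and 0.0036 for Cldn1. With the replicate block Krt18 in Old-Control against Old was -0.16 and Cldn19 in Old-OSK against Young -0.20. Leaving out 1 library moved Ocln from -0.017 to 0.22 and Cldn19 from -0.62 to 0.11 in Old against Young, and Krt8 from -0.26 to 0.24 in Old-OSK against Old-Control. In Old-Control against Old it moved Cldn1 from -0.41 to 0.34, Cldn19 from -0.53 to 0.34, Krt8 from -0.34 to 0.14 and Krt18 from -0.10 to 0.30. In Old-OSK against Young it moved Cldn19 from -0.19 to 0.53. Title numbers were not treated as pairs in Old against Young (r from -0.193 to 0.144 across genes) or in Old-Control against Old (r from -0.189 to 0.359). Nor were they in Old-OSK against Young (r from 0.0209 to 0.352). The epithelium and RPE covariates were added after the data had been seen. The small groups limit the precision, and the low counts of Cldn19 limit it further.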
